A study of Mus musculus with 3 samples.

Results

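The genes described here are 9 of the cytokine signalling pathway of T cells: the kinase genes Jak1 and Jak3, the transcription factor genes Stat3, Stat5a and Stat5b, and the inhibitor genes Socs1, Socs2, Socs3 and Cish. They were chosen by name from 21887 protein-coding genes, with earlier results of these data known. A Tcf1 peak belonged to one of them if its midpoint lay in the gene's span. It also did so if that gene was the nearest protein-coding gene within 100 kb. By this rule 11 of 4519 peaks in conventional CD4 T cells and 9 of 3402 peaks in regulatory T cells (Treg cells) were theirs. Tcf1, the product of Tcf7, is a transcription factor with an HMG box that recognises DNA containing CTTTG, and its binding was mapped by chromatin immunoprecipitation with a Tcf1 antiserum. Both cell populations were wild type, were sorted from the spleen of mice 8 to 10 weeks of age, and carried the same Foxp3-Cre-GFP allele, in which GFP marks cells that express Foxp3. Conventional cells were TCRb+, CD4+, CD25- and Foxp3-Cre-GFP-, and Treg cells were TCRb+, CD4+, CD25+ and Foxp3-Cre-GFP+. The tissue label of the conventional sample calls it effector, while its title and source call it conventional, the name used here. CD25 is the alpha chain of the interleukin 2 receptor, so the gate itself separated the cells by a component of the pathway described here. The lists give positions alone, with no heights or read counts, so the depth behind a peak is unknown. There was 1 library of each population, with no replicate, so every difference below is between 2 peak lists and has no replicate check. Another library of the study, of Tcf1-deficient CD4 T cells from CD4-Cre+ Tcf1 fl/fl mice, was not analysed here.

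Many cytokine receptors of T cells, among them those for interleukin 2 and interleukin 6, have no kinase of their own. They signal through Janus kinases bound to their chains. The activated kinases phosphorylate Stat proteins, which pair, enter the nucleus and bind DNA. Among the genes that Stat proteins switch on are those for Socs proteins and Cish, which bind receptors or kinases and damp the signal. Interleukin 2 acts through Jak1, Jak3 and Stat5 and maintains Treg cells and Foxp3, while interleukin 6 acts through Stat3.

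Of the 9 genes, 5 had a conventional peak, against 16.3% of all protein-coding genes, and 6 had a Treg peak, against 12.3%. The 5 genes with a conventional peak (Jak1, Stat3, Stat5b, Socs1 and Socs3) all had one in the Treg list too, so 0 had a conventional peak alone. Of the 3561 protein-coding genes with a conventional peak, 1788 had a Treg peak too and 1773 did not (8.17% and 8.1% of all genes). Each of the 5 held at least 1 peak that overlapped one of the other list. So did 1651 of the 1788 genes with a peak in both lists, which makes it the usual case among them. These 1651 are 7.54% of all protein-coding genes. Cish had a Treg peak and no conventional peak, as did 4.12% of protein-coding genes. Jak3, Stat5a and Socs2 had none in either list, as did 79.6% of genes. The inhibitors Socs1 and Socs3 each had 3 conventional peaks, a number that 0.832% of genes reached, and Stat5b, Socs1 and Socs3 had at least 2 Treg peaks, as 1.69% of genes did. The genes were not compared with others matched on expression.

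**Figure D1:**
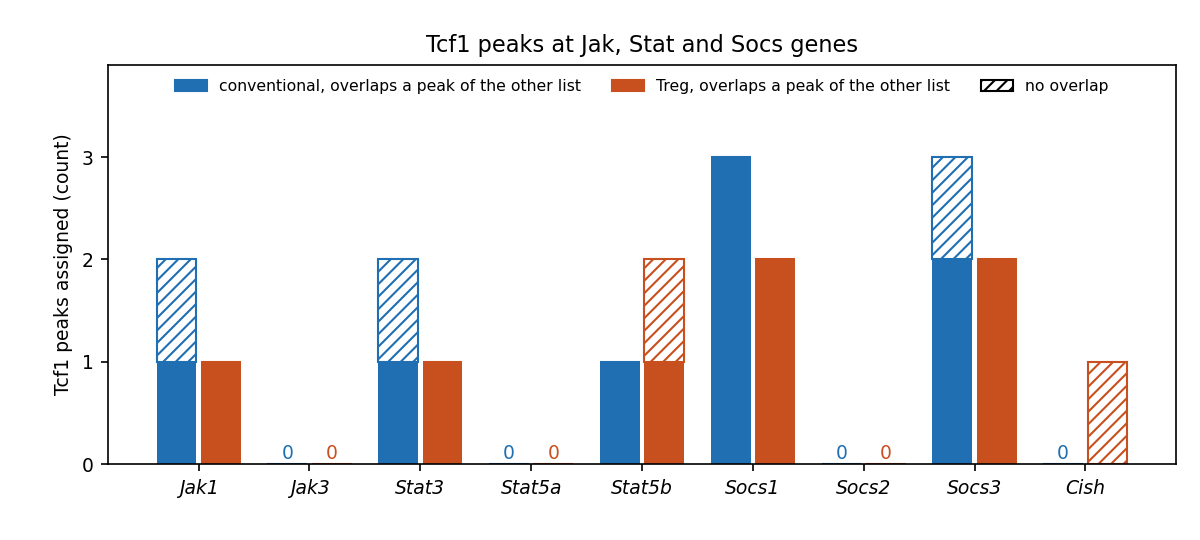
Bars give the number of Tcf1 peaks assigned to each gene in the conventional and the Treg list, with peaks that overlap the other list filled and the others hatched. Socs1 and Socs3 have 3 conventional and 2 Treg peaks each, and Jak3, Stat5a and Socs2 have 0 in both lists.

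Of the 11 conventional peaks at these genes 8 overlapped a Treg peak, or 72.7% (95% Clopper-Pearson interval 39.0% to 94.0%). Among the other 4508 conventional peaks the share was 42.7% (41.3% to 44.2%). In the Treg list 7 of the 9 did so, or 77.8% (40.0% to 97.2%), against 56.8% (55.1% to 58.5%) of the other 3393. The intervals of the few peaks here include the shares of the rest, so these lists do not show a higher degree of sharing at these genes.

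Peaks of both lists met the annotated starts of Stat3 and Socs1, and a Treg peak alone covered that of Socs3. These promoters are shown because a peak touched them. Both lists covered that of Stat3 in full, while they placed their peaks differently on that of Socs1. On that of Socs3 only the Treg list had a peak. Each line gives the 250 bases before the annotated start in the direction of transcription, from RefSeq (GRCm38.p6), all on the minus strand: Stat3 at chr11:100939541-100939790, Socs1 at chr16:10785537-10785786 and Socs3 at chr11:117969367-117969616. Capitals mark the Stat motif TTCNNNGAA. No capitals appear where neither this motif nor the Tcf motif was found.
Stat3: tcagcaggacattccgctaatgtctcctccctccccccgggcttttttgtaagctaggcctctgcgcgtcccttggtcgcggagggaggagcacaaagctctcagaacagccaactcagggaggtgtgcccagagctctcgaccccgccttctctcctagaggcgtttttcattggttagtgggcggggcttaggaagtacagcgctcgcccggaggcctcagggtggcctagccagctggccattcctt
Socs1: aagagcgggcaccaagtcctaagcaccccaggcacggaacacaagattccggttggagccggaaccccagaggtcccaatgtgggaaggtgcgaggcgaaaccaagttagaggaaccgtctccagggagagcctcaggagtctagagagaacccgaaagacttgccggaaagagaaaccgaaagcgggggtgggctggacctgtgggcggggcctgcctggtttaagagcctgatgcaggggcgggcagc
Socs3: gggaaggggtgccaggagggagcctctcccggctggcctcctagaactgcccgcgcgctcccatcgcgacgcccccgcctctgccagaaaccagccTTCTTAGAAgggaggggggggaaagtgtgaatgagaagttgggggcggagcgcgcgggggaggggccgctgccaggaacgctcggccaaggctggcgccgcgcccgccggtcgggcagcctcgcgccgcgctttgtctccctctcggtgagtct
The first 20 transcribed bases of Cish, chr9:107296659-107296678 on the plus strand, are shown for comparison because no peak lay there while the Stat motif occurs in them 2 times.
Cish: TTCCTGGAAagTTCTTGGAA

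The Tcf motif was searched as CTTTG followed by A or T at each of the next 2 bases, on both strands, and the Stat motif as TTCNNNGAA, which reads the same on both strands, in windows of 300 bp from 250 bp before the start. The motifs do not overlap each other in these windows. Of 10 windows of 8 of the genes, 0 held the Tcf motif, against 14.7% of 21263 windows of protein-coding genes. The Stat motif occurred in 2 of the 10, those of Socs3 and Cish, against 7.69% of protein-coding windows. In Socs3 it is TTCTTAGAA and begins 154 bases before the start, within the Treg peak. In Cish it occurs as TTCCTGGAA and TTCTTGGAA, beginning at transcribed bases 1 and 12. A window with 2 or more Stat motifs was found for 0.404% of protein-coding windows. Protein-coding windows touched by a peak held the Tcf motif in 13.8% (conventional) and 16.3% (Treg) of cases.

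A peak touched the promoter window of 2 of the 8 genes in the conventional list (11.3% of 17492 protein-coding genes with a window) and of 3 in the Treg list (7.11%). Both lists touched those of Stat3 and Socs1, as was the case for 4.75% of genes. The window of Socs3 was touched in the Treg list alone. Its conventional peak ended 257 bp before the start, just short of the window, which begins 250 bp before it.

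**Figure D2:**
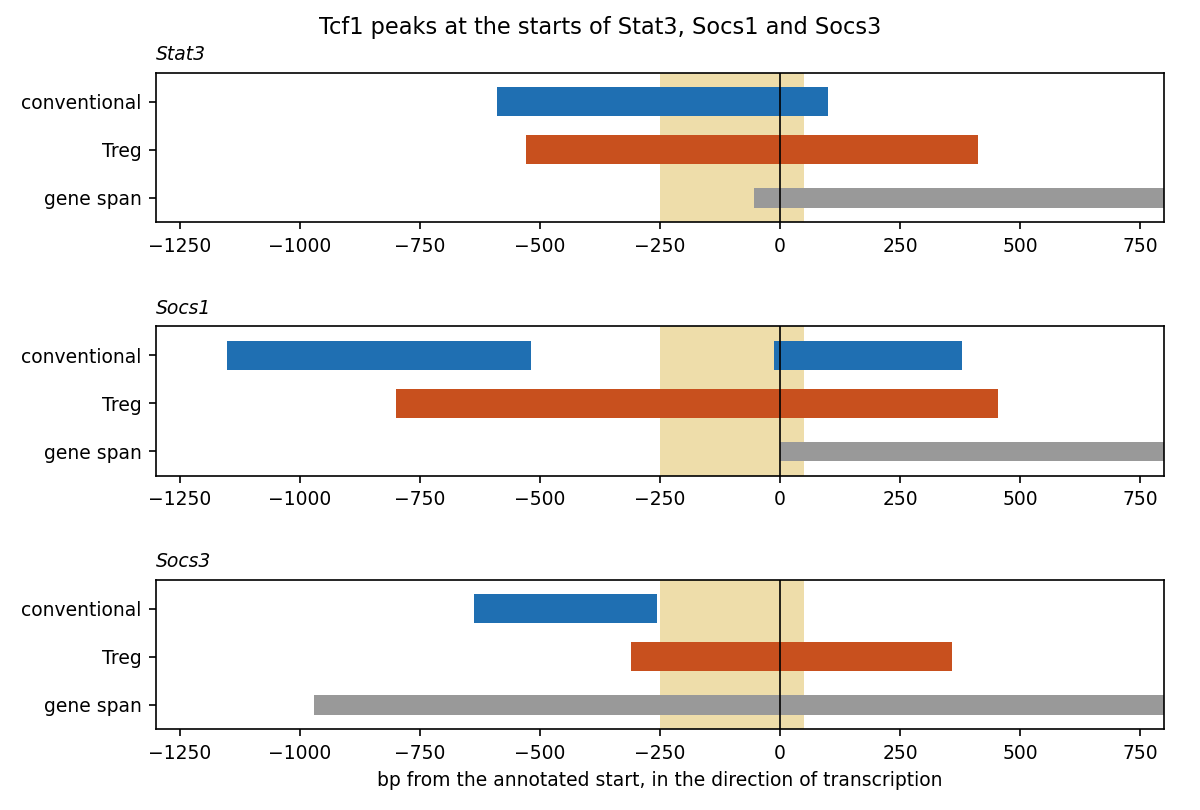
Tcf1 peaks of each list around the annotated starts of Stat3, Socs1 and Socs3, in bp along the direction of transcription, with the gene span in grey and the promoter window (250 bp before to 50 bp from the start) shaded. The Treg peak at Socs1 overlaps both conventional peaks, and at Socs3 the conventional peak ends just before the window that the Treg peak covers.

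At the start of Socs1, which encodes an inhibitor that blocks Jak kinase activity, the lists differed in form. The conventional list had 2 peaks there. One (chromosome 16, 10785156 to 10785549, 394 bp) ran from 13 bp before to 380 bp after the start. The other (10786055 to 10786689, 635 bp) lay upstream, from 1153 to 519 bp before the start, and 505 bp separated the pair. The Treg list had 1 peak of 1254 bp (10785082 to 10786335) that began 799 bp before the start, ended 454 bp after it and overlapped both, the first over its whole 394 bp and the upstream one over 281 bp. With an overlap of 50% of the shorter peak required, the upstream pair was no longer shared. It was at the 99.0 percentile of width in the Treg list. The whole Treg list holds 11 peaks that overlap 2 or more conventional peaks. Whether 1 long peak or 2 short ones were called can depend on depth, which is unknown here, and its part in this difference was not tested. A further Socs1 peak was nearly the same in both lists. It covered 10771776 to 10772528 (753 bp) in conventional and 10771779 to 10772572 (794 bp) in Treg cells, its midpoints were 23.5 bp apart, and it lay 13.4 kb downstream of the start. In width it stood at the 91.6 percentile of the conventional and the 95.6 percentile of the Treg list.

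Socs3, which encodes an inhibitor that binds the gp130 chain of the interleukin 6 receptor, had peaks in 3 places. Near its annotated start (gene span chromosome 11, 117966079 to 117970336) the conventional peak was 382 bp wide (117969623 to 117970004) and ran from 638 to 257 bp before the start. The Treg peak there was 669 bp wide (117969008 to 117969676), began 310 bp before the start and ended 358 bp after it. The gene span reaches further upstream than this start. Both peaks thus lie inside the span, with midpoints at 12.3% (conventional) and 23.3% (Treg) of its length from the 5′ end. The pair overlapped by 54 bp and its midpoints lay 471.5 bp apart. Over all 1946 overlapping pairs the median distance was 59.5 bp, and 98.7% of pairs were as close or closer. This pair too was lost when an overlap of 50% was required, which left 6 conventional and 6 Treg peaks shared at the 9 genes. The second place was just past the 3′ end of the gene, where peaks of 330 bp (117965661 to 117965990, conventional) and 267 bp (117965720 to 117965986, Treg) had midpoints 27.5 bp apart. These were narrow peaks, at the 19.6 and 13.2 percentile of their lists. The last was a conventional peak of 516 bp (117952303 to 117952818), 16.8 kb downstream of the start, with no Treg peak over it.

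Cish encodes an inhibitor induced by Stat5 that also restrains T cell receptor signalling. Its span (chromosome 9, 107296659 to 107302784) held no peak in either list. The 1 Treg peak assigned to it (107312928 to 107313245, 318 bp, 33.5 percentile of width) lay 16.4 kb downstream of the start and 10302.5 bp beyond the span. It had no overlapping conventional peak, and the nearest conventional midpoint to the Cish span, in Hemk1, was 35638 bp away. Socs2, an inhibitor of growth hormone signalling (chromosome 10, 95383903 to 95417321), had no peak nearby. The nearest midpoints were 97837 bp (conventional) and 97547 bp (Treg) from its span, in a peak pair that the rule gave to Ube2n, a ubiquitin-conjugating enzyme gene.

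The factor genes Stat5b, Stat5a and Stat3 stand side by side on chromosome 11, from 100780731 to 100939594, with gaps of 346 bp and 1636 bp between their spans. This stretch and its Stat3 end held 3 conventional and 3 Treg peaks. All 3 genes share it, so their peaks cannot be tied to 1 gene by position alone. Stat3 encodes the factor activated by interleukin 6. Its start lay under a conventional peak of 690 bp (100939441 to 100940130, from 590 bp before to 99 bp after the start) and a Treg peak of 944 bp (100939127 to 100940070, from 530 bp before to 413 bp after). The pair overlapped by 630 bp, covered all 300 bp of the promoter window in each list, and stood at the 88.5 and 97.4 percentile of width. A second conventional peak at Stat3 (100891685 to 100892048, 364 bp) lay inside the gene at 90.4% of its length from the 5′ end, and no Treg peak overlapped it.

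Stat5b encodes 1 of the pair of Stat5 proteins that carry the interleukin 2 signal. It had 1 place bound in both lists, a conventional peak of 614 bp (100823912 to 100824525) and a Treg peak of 331 bp (100824043 to 100824373) wholly within it, with midpoints 10.5 bp apart. RefSeq windows give this gene 2 starts, and the pair lay inside the span, 26.4 kb downstream of the upper start and, by the midpoints, 1648.5 bp (conventional) and 1638 bp (Treg) upstream of the lower. A second Treg peak (100846022 to 100846327, 306 bp), 4.41 kb downstream of the upper start, had no conventional counterpart. The Stat5b span reaches further upstream than the upper start, to 100859004, and this peak stood at 16.4% of its length from the 5′ end. No peak was assigned to Stat5a (100859351 to 100885169), the other Stat5 gene. The nearest midpoints to its span were 6697.5 bp (conventional) and 13176.5 bp (Treg) away, in Stat3 and Stat5b. The conventional peak in Stat3 was therefore nearer to Stat5a than any Treg peak was.

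**Figure D3:**
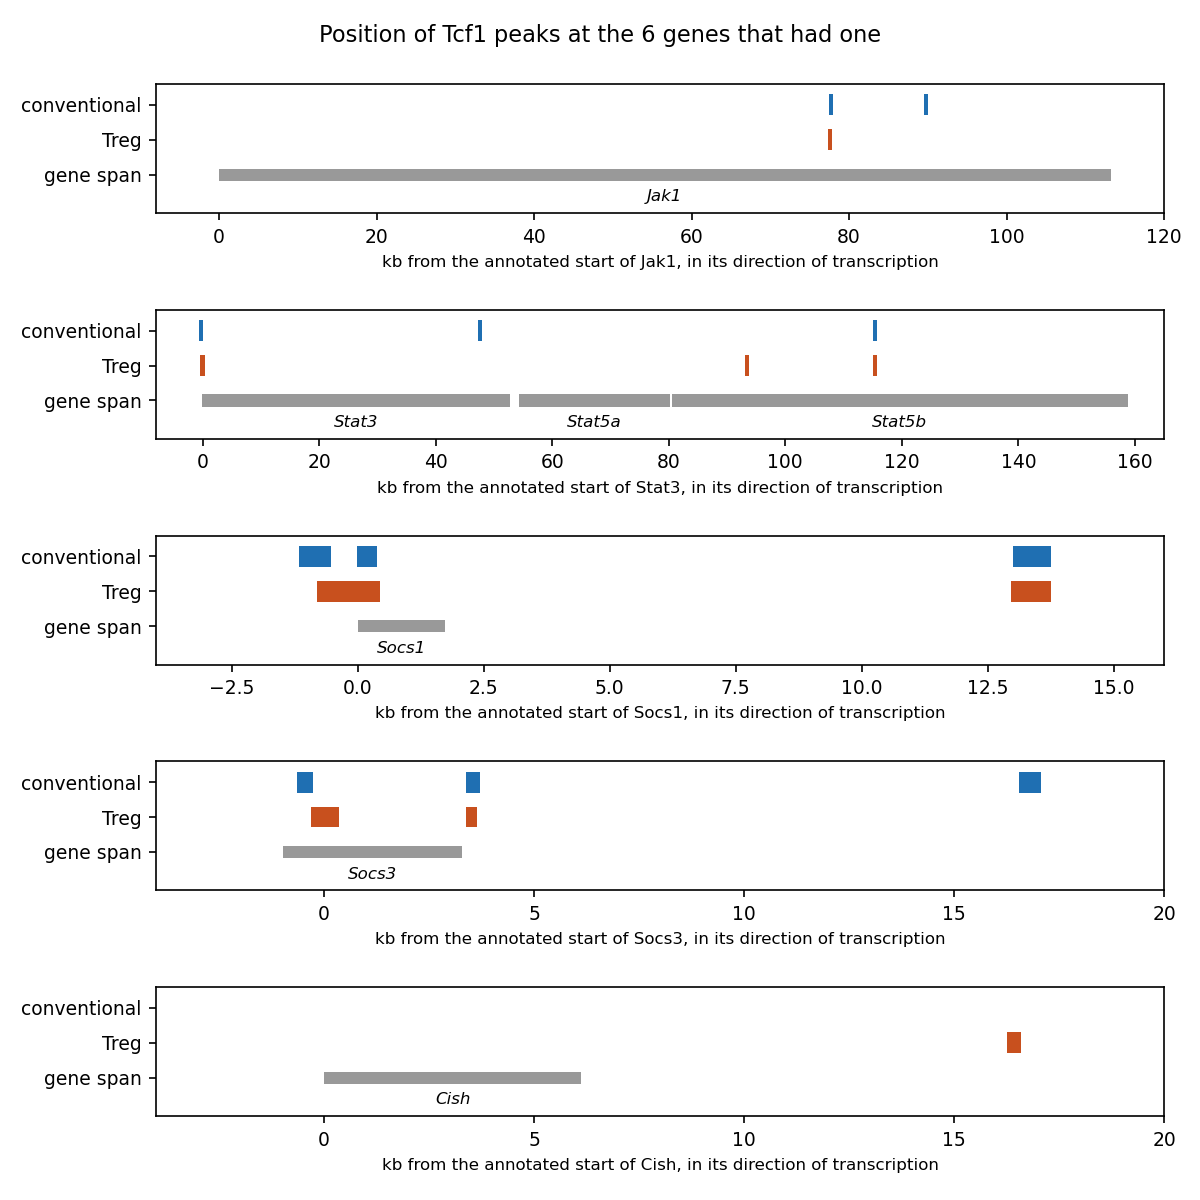
Positions of the peaks of each list at the 6 genes that had one, in kb from the annotated start in the direction of transcription, with gene spans in grey. Very narrow peaks are drawn at a minimum width. Stat3, Stat5a and Stat5b share a panel with 3 peaks of each list, measured from the Stat3 start in the direction of Stat3 transcription. The single Treg peak near Cish lies beyond the gene.

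Of the kinase genes, Jak1, whose product serves many cytokine receptors, had peaks deep inside its span (chromosome 4, 101151974 to 101265282) and none at its start. A conventional peak of 579 bp (101187247 to 101187825) contained the Treg peak of 412 bp (101187382 to 101187793), both at 68.6% of the span's length from the 5′ end and 77.7 and 77.6 kb from the start. A second conventional peak of 477 bp (101175192 to 101175668) stood at 79.3% of the length, with no Treg peak over it. Whether these places are exonic or intronic was not read here. Jak3, which pairs with Jak1 on receptors that use the common gamma chain, had no peak (chromosome 8, 71676383 to 71690577). The nearest conventional midpoint was 65383 bp away, in Colgalt1, another conventional peak lay beside Pgls, and the nearest Treg midpoint was 114283.5 bp away.

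Peak widths were ranked within each list, because the lists carry no height. For 8 overlapping pairs at these genes, the Treg peak was the wider in 5, against 30.3% of all 1946 pairs. By percentile within its own list the Treg peak ranked higher in the same number, 5 of 8, against 48.7% of all pairs. These 5 were the pair at the Stat3 start, the 2 at the Socs1 start, the downstream Socs1 pair and the pair at the Socs3 start. The Treg peak at the Socs1 start enters 2 of the 5, so only 4 Treg peaks are involved. At Socs1 the 2 conventional peaks stood at the 41.0 and 84.1 percentile and the Treg peak at 99.0. At Socs3 the values were 37.3 and 92.0. The order was opposite at Stat5b, with 82.1 for conventional and 38.1 for Treg, and at Jak1, with 77.7 and 62.5. Peaks without a counterpart stood at 31.5 to 69.0 in the conventional and 29.2 to 33.5 in the Treg list. The median percentile was 69.0 over the 11 conventional and 62.5 over the 9 Treg peaks.

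**Figure D4:**
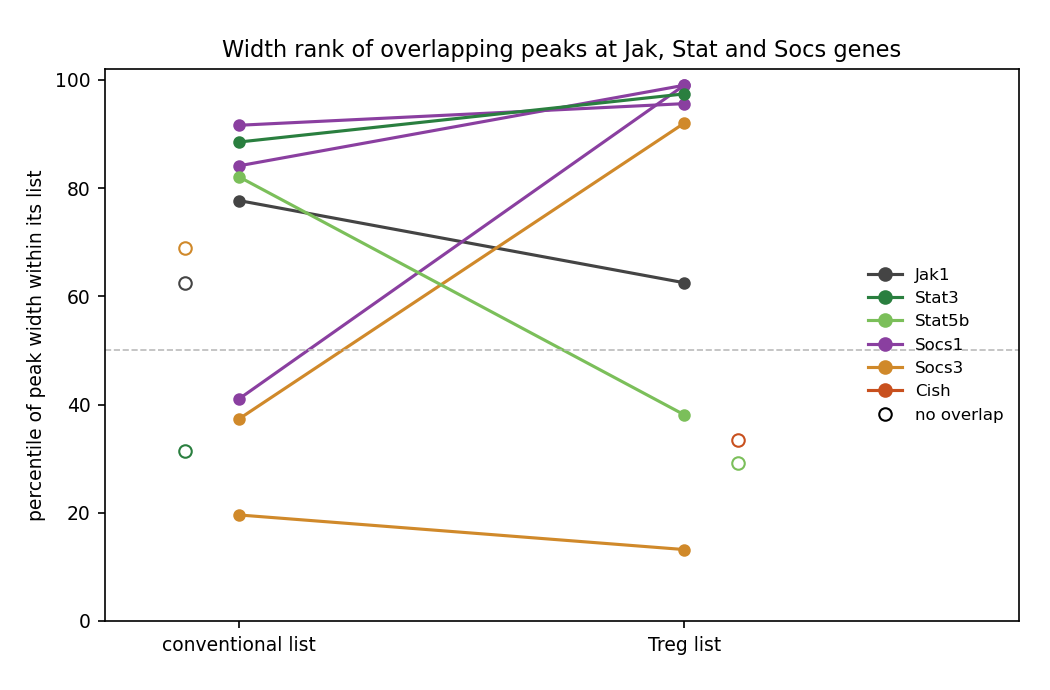
Percentile of each peak's width within its own list, with overlapping conventional and Treg peaks joined by a line and peaks without overlap as open circles, coloured by gene. The lines of Stat3, of Socs1 and of 1 Socs3 pair go up toward the Treg list, and those of Stat5b, Jak1 and the other Socs3 pair go down.

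Socs1 and Socs3 tied for the most peaks, 3 conventional and 2 Treg. Of the other protein-coding genes 0 matched Socs1 in the counts of conventional, Treg and overlapping peaks. For Socs3 25 genes did, and those nearest to its summed peak width of 2164 bp were Bicral (2156 bp), Sag (2140 bp) and Prag1 (2139 bp). This likeness rests on 2 lists and on counts alone.

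Peaks within 100 kb of these genes that fell to neighbours, besides those already named, were few. Each list had 1 overlapping peak in Atp6v0a1, a proton pump gene, 69899.5 bp (conventional) and 69904.5 bp (Treg) from the Stat3 span. Each also had 1 in Tha1, 93731.5 bp (conventional) and 93592.5 bp (Treg) from the Socs3 span. Treg peaks without overlap lay in Clec16a and beside Rmi2, on the 2 sides of Socs1, 58559.5 and 58570.5 bp from its span.

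The other genes of the pathway were then counted, in lists that were also chosen with earlier results of these data known. Among 10 other Jak, Stat and Socs genes, 2 had a conventional peak, another 2 had one in the Treg list, and 0 had both, so this list lay close to the level of all genes. Socs7 (2 peaks) and Stat6, the factor of interleukin 4 signalling, had conventional peaks only, and Jak2 and Socs6 had Treg peaks only. Among 19 receptor chains that use Jak kinases 9 had a conventional and 9 a Treg peak (47.4% each), and 7 had overlapping peaks. Over all protein-coding genes 16.3% had a conventional peak, 12.3% a Treg peak and 7.54% overlapping peaks. The gp130 gene Il6st had 2 conventional and 3 Treg peaks, and the interferon receptor gene Ifnar1 had 2 in each list, all overlapping. Il21r had 2 conventional and 1 Treg peak. Il7r and Il27ra had a conventional peak alone, and Il2rb and Ifngr1 a Treg peak alone.

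Of 10 other inhibitors of the pathway 3 carried conventional peaks (30.0%) and 7 carried Treg peaks (70.0%), against 16.3% and 12.3% of all protein-coding genes. The 3 with a peak in both lists were Ptprc, the CD45 phosphatase, with 2 overlapping peaks in each, Pias4 with 1 conventional and 2 Treg peaks, and Sh2b3 with 1 in each. Those with a Treg peak alone were Ptpn2 and Ptpn11, which encode phosphatases, and Pias1 and Pias2, which encode Stat-binding proteins with SUMO ligase activity, each with 1 peak. Over all protein-coding genes 4.12% had a Treg peak alone and 8.1% a conventional peak alone. A difference of 4 genes between 1 library of each kind has no replicate check. Among 17 known Stat target genes, 11 carried conventional peaks (64.7%), 10 carried Treg peaks (58.8%) and 8 had overlapping ones. The shares over all protein-coding genes were 16.3%, 12.3% and 7.54%. Of 7 CD4 T cell marker genes 5 had a peak in each list (71.4%), so a high share was not particular to Stat targets. The lists were not matched on expression. Pim1, a kinase gene induced by Stat5, had 4 peaks in each list, of which 2 overlapped. Ccnd3, a D-type cyclin gene, had 4 conventional and 3 Treg peaks, and Prdm1, the Blimp-1 gene, had 3 and 2. Batf, Bcl2l1 and Mcl1 had conventional peaks alone and Irf1 and Pim2 a Treg peak alone. Il2ra is in both the receptor list and the Stat target list.

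**Figure D5:**
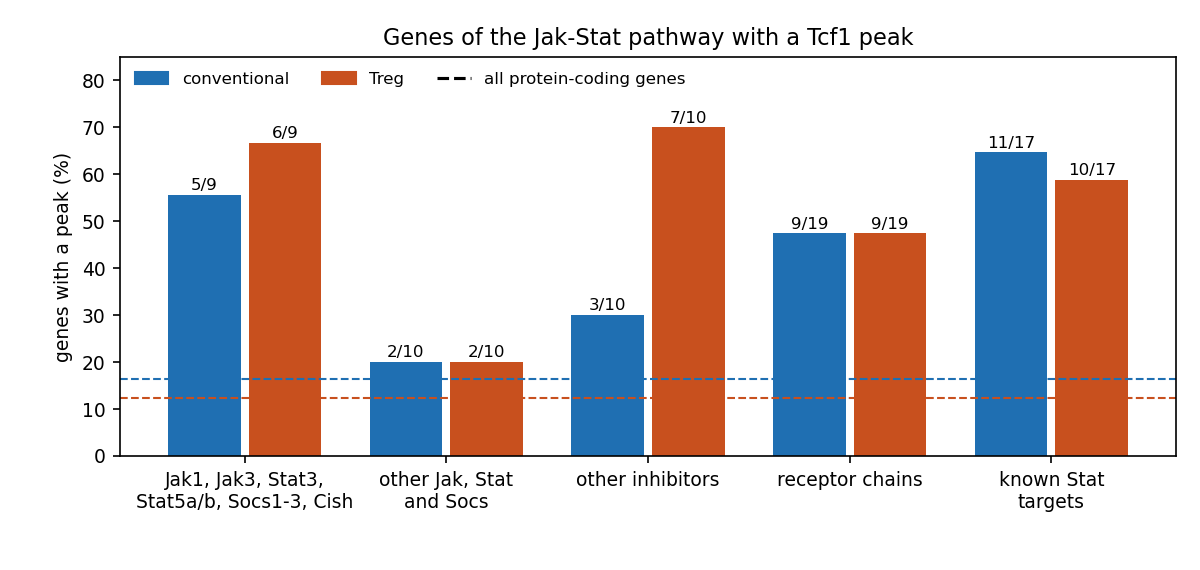
Percentage of genes with a conventional or a Treg peak in the 9 genes and in 4 lists of other Jak-Stat pathway genes, with counts above the bars and the level of all protein-coding genes (16.3% and 12.3%) as dashed lines. The other Jak, Stat and Socs genes sit nearest to the dashed lines, with 2 of 10 in each list.

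Peaks were also counted at genes that mark cell types. In each list 5 of 7 CD4 T cell genes had a peak, and of 4 Treg genes 3 and 2, while 0 of 5 B cell and 0 of 5 myeloid genes had a peak in either list. Of all protein-coding genes 16.3% had a conventional peak, 12.3% had one in the Treg list and 79.6% had none, so the counts of 0 are near the level of all genes. Binding near a gene is not its expression, so these counts do not measure the purity of the sorted cells.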

How the data were processed

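Tcf1 binding was profiled by chromatin immunoprecipitation sequencing, and the authors deposited 1 peak list for each of 2 libraries as positions alone, 3 columns with chromosome, start and end. They state no height, count or p-value for any peak, which leaves the depth unknown. Bowtie2 2.3.4.1, MACS2 2.1.1, FastQC and build mm10 appear in the submitters' processing notes, without roles. The authors named both files as filtered by a step not given in the sources used. The Tcf1-deficient library was not analysed here, and the sources used do not say whether it served as control in calling or filtering the peaks.

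Analysis used Python 3.11.15, numpy 2.4.6, pandas 2.3.3, scipy 1.17.1 and matplotlib 3.10.9. Printed positions are 1-based. A peak was assigned to each protein-coding gene whose span held its midpoint, or otherwise to the nearest within 100 kb, among 21887 genes of a RefSeq table of GRCm38.p6, whose primary chromosomes are those of mm10. The table holds spans without exons or introns. Peaks of the 2 lists counted as shared, or overlapping, from 1 common bp upward. Promoter windows (250 bp before to 50 bp from the annotated start) came from RefSeq for the same build and matched 8 of 9 genes. A planned motif search in peak sequence was left out for want of a genome sequence. With 1 library per cell type no test was made. Clopper-Pearson intervals at 95% treat peaks as independent and cover counting error only. The overlap step was tested on slightly shifted copies of conventional peaks, and the assignment step on midpoints planted inside genes. Assignment to the nearest gene outside a span was not tested in this way. The 9 genes and the pathway lists were chosen with earlier results of these data known. Genes named are the 9, the neighbours that take a nearby peak, and from each pathway list the 3 with the most peaks and those with a peak in 1 list alone. Further genes are named where a count is small. The genes most alike in peak counts were sought for the member with the most peaks, and for both where 2 tied.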

Additional observations from a re-analysis of the deposited data

How the results depend on the processing

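Of 55 values recomputed under 9 alternatives, 47 stayed within 1.5 times the reported count or within the interval of the reported share. The other 8 came from 2 alternatives that drop peaks by construction. A distance limit of 20 kb could change no value, because no peak assigned to the 9 genes lay further than 13518.5 bp from its span. The intervals of the shares, 39.0% to 94.0% and 40.0% to 97.2%, are so wide that only large changes could leave them. The count of 47 is therefore weak evidence of stability. With only peaks whose midpoint lay in a gene span, 3 genes had a Treg peak and 3 an overlapping peak, and 6 conventional and 4 Treg peaks were counted. This left out the Treg peaks at the starts of Stat3 and Socs1, whose midpoints lie 4.5 and 172.5 bp outside. In the wider part of each list, 3 genes had an overlapping peak, 7 conventional and 5 Treg peaks were counted, and 100% of those Treg peaks overlapped the full conventional list. With the nearest gene of any kind, the peaks at the Stat3 start fell to the noncoding gene Gm46295, and 4 genes had an overlapping peak. With all peaks in the spans and 10 kb around them, Stat5a gained the conventional peak in Stat3 and Cish had none. Searching the core CTTTG in place of the 7-letter Tcf motifs, a choice made after seeing the data, gave 7 of 10 windows in place of 0. No paired analysis was possible because each cell type had 1 library. The depth behind the lists is unknown, so a missing peak does not show that Tcf1 was absent.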

Other observations

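The following motifs were chosen after the promoter sequences had been seen. The core CTTTG, which Tcf motifs share, occurred on either strand in 7 of the 10 promoter windows, against 51.2% of 21263 protein-coding windows. It lay 157 bases before the start of Stat3, within the peaks of both lists, and 24 bases before that of Socs3, within the Treg peak. The other 5 windows with the core (those of Jak3 and Cish, both of Stat5a and 1 of Stat5b) were touched by no peak. The Socs1 window, under a peak in both lists, did not contain it. That window held GAAA and GAAA with 2 bases between, a pattern bound by interferon regulatory factors, as GAAAGAGAAA and GAAACCGAAA, which begin 83 and 77 bases before the start and share 4 bases. The pattern was found on either strand in 3.35% of protein-coding windows. Both occurrences lie in the part of the Socs1 promoter that the Treg peak covers and that separates the 2 conventional peaks. A match is a description of letters and does not show that a factor was bound there.

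The peaks at the Stat3 start also lie within the span of the noncoding gene Gm46295 (chromosome 11, 100938338 to 100940242), so their position does not tell the 2 genes apart.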
